A study of Mus musculus with 2 samples.

Results

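Ribosomal protein genes encode the proteins that, with ribosomal RNA, build the large (Rpl) and small (Rps) subunits of the cytosolic ribosome. They were followed through the layers of the mouse esophageal epithelium and through the cell states of the same epithelium without p63. Members were all genes whose symbol was Rpl or Rps with a number, Rplp0, Rplp1, Rplp2 or Rpsa, which gave 84 of the 32285 genes in the files, 52 of the large and 32 of the small subunit. The tissue was taken from C57BL/6 embryos at E18.5, late in gestation, as 1 p63-KO library, labelled p63-CreER/p63-CreER, and 1 wild-type library, labelled p63-CreER. The labels thus give the CreER allele of p63 (Trp63) in both, on both chromosomes in the p63-KO library, and call the control a littermate; how many embryos entered a library is not stated. Muscle was stripped off, epithelial cells were released with dispase and trypsin, and transcripts were counted by droplet sequencing of transcript 3′ ends, so that 1 captured transcript gives 1 UMI (unique molecular identifier).

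Ribosomal protein genes are transcribed together at high rates, and their messages are short and stable. Most of these messages begin with a run of pyrimidines, the 5′ terminal oligopyrimidine tract, through which the mTOR pathway controls their translation. In stratified epithelia the basal layer holds the dividing cells, which leave the cell cycle and build cornified envelope and keratin proteins as they move up. p63 is the transcription factor that maintains the stratified epithelial programme, and esophagi without it are known, in mice, to form a ciliated columnar lining.

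After filtering and removal of called doublets, 2375 p63-KO and 5519 wild-type cells were left, with medians of 19363 and 10926 UMIs per cell. Of these, 1685 p63-KO and 5359 wild-type cells were epithelial-like by markers. Trp63 itself had 118 CPM (counts per 1000000 UMIs) in p63-KO epithelial-like cells and 302 CPM in wild-type ones. Whether its 3′ end lies in the changed part is not stated, so the genotype is not checked by it. Krt5, a basal keratin, had 0.234 CPM in p63-KO and 764 CPM in wild-type epithelial-like cells. Cells with Xist UMIs and cells with Y-linked UMIs occurred in both libraries, so each held embryos of both sexes. Where cells are split by these UMIs below, cells with both kinds or with neither are left out. Of 248 p63-KO cycling cells, 133 had Xist but no Y-linked UMIs and 34 had Y-linked but no Xist UMIs. The libraries shared 5 barcodes among the kept cells. Krt13, an epithelial keratin, had a UMI in 30.1% of p63-KO fibroblast-like cells. Free RNA and missed doublets were not told apart as its source. All intervals are exact 95% intervals for counting error only. With 1 library a genotype, no difference has a replicate check and none was tested.

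Promoter windows are shown for 7 members on which the results turn, to let the pyrimidine run at the start of transcription be seen. Each runs from 60 bases before to 20 bases from the annotated start onward, 5′ to 3′ on the gene's strand, from RefSeq on GRCm38.p6. Capitals mark the longest unbroken run of at least 5 C or T that touches the 10 bases on either side of the start. Rps27 and Rps27l are a gene and its second copy, whose balance differed between states. Rps26, Rpl35 and Rps4x were the members furthest lower in p63-KO cells. Rpl7a and Rpl12 were among the lowest in suprabasal-like cells.
Rps27 (chr3:90213629-90213708, minus strand): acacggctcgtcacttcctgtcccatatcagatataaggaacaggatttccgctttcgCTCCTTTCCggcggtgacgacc
Rps27l (chr9:66946026-66946105, plus strand): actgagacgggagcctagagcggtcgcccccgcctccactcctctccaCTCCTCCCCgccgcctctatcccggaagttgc
Rps26 (chr10:128626487-128626566, minus strand): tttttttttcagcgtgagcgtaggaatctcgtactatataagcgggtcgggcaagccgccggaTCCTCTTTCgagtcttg
Rpl35 (chr2:39005112-39005191, minus strand): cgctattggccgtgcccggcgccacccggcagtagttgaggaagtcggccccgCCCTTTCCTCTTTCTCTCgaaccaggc
Rpl7a (chr2:26910747-26910826, plus strand): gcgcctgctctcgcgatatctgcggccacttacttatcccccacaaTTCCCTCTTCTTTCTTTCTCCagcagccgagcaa
Rpl12 (chr2:32961652-32961731, plus strand): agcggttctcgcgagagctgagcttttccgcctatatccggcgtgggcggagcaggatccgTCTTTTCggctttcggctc
Rps4x (chrX:102189372-102189451, minus strand): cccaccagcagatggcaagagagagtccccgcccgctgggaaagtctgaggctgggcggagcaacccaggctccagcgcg
In Rps27, Rpl35 and Rpl7a the run covers the annotated start. In Rps27l it lies before the start, in Rps26 and Rpl12 after it, and the Rps4x window has no such run.

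RefSeq promoter entries were found for 64 of the 84 members, 76 entries in all. A run of at least 8 C or T within 10 bases of the start stood in 39.5% of the member entries and in 13.7% of all 32851 promoter entries. A start base C followed by 4 C or T, the strict form of the tract, stood in 17.1% of member entries and 2.51% of all. Both counts take the annotated start, and the starts used in these cells were not measured. An entry without a run thus does not show that the message lacks the tract. CTTTCC on the sense strand, from 30 bases before to 50 after the start, which can lie within a pyrimidine run, was in 27.6% of member entries and 3.73% of all. CCGGAAG, a core that ETS-family factors such as GABP are known to bind, was found on either strand of the 300 bases in 35.5% of member entries and 8.86% of all. In upper suprabasal-like over basal-like cells the median log2 ratio was -0.39 for 27 members with a run of at least 8 in the entry nearest the gene's start and -0.48 for 33 members without. In p63-KO neuroendocrine-like over other p63-KO cells both medians were -1.85.

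In wild-type epithelium the ribosomal protein share of all UMIs was highest in basal-like cells and lowest, outside ciliated-like cells, in the upper suprabasal-like cluster. It was 17.66% (17.64 to 17.67) in 1816 suprabasal-like cells and 18.65% (18.64 to 18.67) in 1504 cycling cells, against 21.25% (21.23 to 21.27) in 2012 basal-like cells. Basal-like is a cluster name here and does not mean resting. In a finer clustering (resolution 1) a cluster of 532 cells led by Ung, Timeless and Mcm3 was named cycling. The basal-like clusters there held 973 and 476 cells. The 2 suprabasal-like clusters differed from each other. The upper one, led by the late squamous genes Psca, Mal and Cnfn, had 15.97% in 876 cells, and the lower one, led by Krtdap and Notch3, had 20.28% in 940 cells. Both basal-like clusters stood above both: 21.06% in the large cluster of 1541 cells and 21.88% in the cluster of 471 cells led by Zbtb16, Tenm2 and Edaradd. Cycling clusters aside, the difference with layer was thus mostly one between the upper cluster and the other basal-like and suprabasal-like clusters.

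The share was lower in upper cells, but the number of ribosomal protein UMIs per cell was not. Upper suprabasal-like cells had a median of 2556.5 ribosomal protein UMIs and 13960.5 UMIs from all other genes, against 2043.5 and 7373 in basal-like cells. Cells of both layers were also ordered by the share of suprabasal among basal and suprabasal marker UMIs and put into 10 bins of 382 or 383 cells. The share stayed between 20.8% and 21.6% over the first 6 bins, was 20.03% in bin 7, and was 16.6%, 15.9% and 17.3% in bins 8 to 10. Over the same bins the median of ribosomal protein UMIs went up in every step but that to bin 8, with 1872 in bin 1 and 2657 in bin 10, and that of all other UMIs was 6916 in bin 1 and 13906.5 in bin 10. With all marker UMIs left out of the total, the share was 21.5% in bin 1 and 18.4% in bin 10. The nuclear RNAs Malat1, Neat1, Meg3 and Kcnq1ot1 took 2.06% of UMIs in upper suprabasal-like and 0.931% in basal-like cells. Dissociation response genes took 0.334% and 0.196%, and mitochondrial genes 3.20% and 3.22%. The part of the first 2 in the result was not tested. When the 50 most abundant other genes were left out of the total, the log2 ratio of the share in suprabasal-like over basal-like cells was -0.15, against -0.27 with them.

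**Figure D1:**
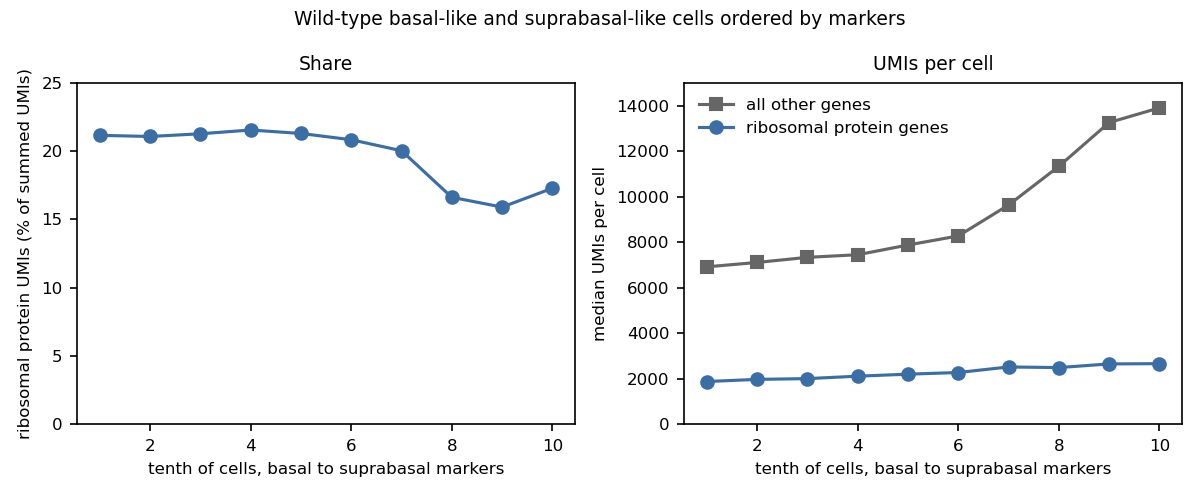
Wild-type basal-like and suprabasal-like cells in 10 bins, ordered by marker UMIs with the most basal at the left. The left axis gives the ribosomal protein share of summed UMIs in percent, the right one the median UMIs per cell for ribosomal protein genes (circles) and all other genes (squares). The share stays near 21% and then drops to 15.9% in bin 9, while median ribosomal protein UMIs per cell are 2512 in bin 7, 2485 in bin 8 and 2645.5 in bin 9.

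Cycling cells were not uniform. The S-phase cluster, led by Rrm2 and Clspn, had a ribosomal protein share of 20.63% in 558 cells, close to that of the large basal-like cluster. The cluster led by Cenpa, Ccnb2 and Cdc20 had 18.46% in 474 cells, and the cluster led by Top2a, Prc1 and Ube2c had 16.93% in 472 cells. The median depth of these clusters was 12628, 9053 and 15980 UMIs, so the order of the shares was not that of the depths. Ciliated-like cells had the lowest wild-type share, 8.63% (8.57 to 8.70), in 27 cells.

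Most members differed little between the wild-type layers, and more in the upper suprabasal-like cluster than in the others. Of the 84 members, 81 had at least 5 CPM in 1 of the classes compared, and 80 had at least 100 CPM in basal-like cells. In suprabasal-like over basal-like cells the log2 ratio (1 CPM added) was below 0 for 74 of 81 members and for 67.4% of all genes, and the members' median was -0.27. None of the 81 (0) reached 1.5-fold, where 31.6% of 11021 genes were lower and 15.1% higher by that much. All 11021 genes had a median of -0.30 there, close to that of the members. In the upper suprabasal-like cluster 20 of 81 members were lower by 1.5-fold or more and 0 higher, where 42.4% of 11089 genes were lower and 16.7% higher. In the lower one 0 of 81 members reached 1.5-fold, where 16.1% of 10853 genes were lower and 11.9% higher. In cycling over basal-like cells 78 of 81 members and 52.1% of all genes were below 0, the members' median was -0.19, and 0 reached 1.5-fold. There the median of all genes was -0.01, with 2.41% of 10766 genes lower and 7.17% higher by 1.5-fold or more.

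**Figure D2:**
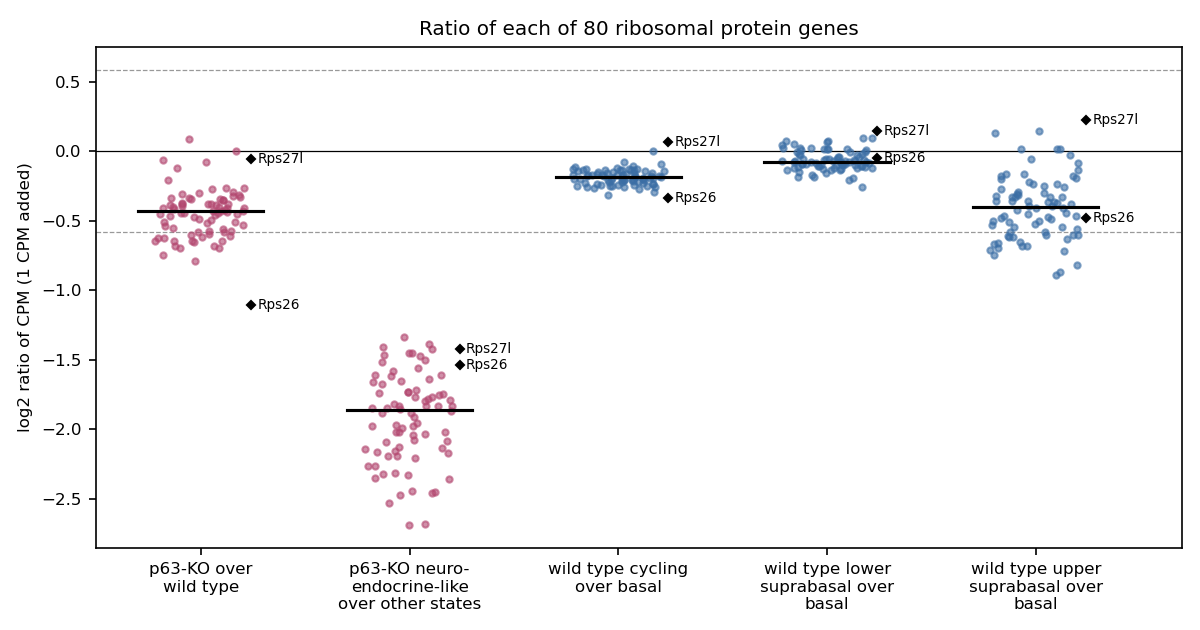
Log2 ratio of CPM for each of the 80 members with at least 100 CPM in wild-type basal-like cells, in 5 comparisons; black bars are medians, diamonds mark Rps27l and Rps26, and dashed lines mark 1.5-fold. All members lie below -1.3 in p63-KO neuroendocrine-like cells over other p63-KO states, whereas within the wild-type layers they lie between -0.89 and 0.23.

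The lowest members in suprabasal-like over basal-like cells were Rpl3, Rpl7a, Rpsa, Rpl12 and Rpl11. Rpl3, which reaches into the peptidyl transferase centre, had 1434 CPM in suprabasal-like and 2136 CPM in basal-like cells, a log2 ratio of -0.57 and 1.49-fold lower (1.47 to 1.51). Rpl7a had 917 and 1364 CPM (log2 -0.57). Rpsa, a small-subunit protein also known as the laminin receptor, had 1734 and 2527 CPM (log2 -0.54). Rpl12, at the base of the stalk, and Rpl11, which with Rpl5 and 5S ribosomal RNA binds Mdm2, both had a log2 ratio of -0.47. Rpl5 had 2408 CPM in suprabasal-like and 3166 CPM in basal-like cells, and Rps6, the small-subunit protein that S6 kinases phosphorylate, had 1200 and 1650 CPM.

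The highest were Rps27l and 3 more small-subunit members, and Rpl22l1. Rps27l had 573 CPM in suprabasal-like and 501 CPM in basal-like cells, 1.14-fold higher (1.12 to 1.17). Rps29 had 1429 and 1316 CPM, Rps28 had 1366 and 1260 CPM, and Rps21 had 1718 and 1663 CPM. Rpl22l1, the second copy of Rpl22, had 897 and 886 CPM, with an interval of the ratio that includes 1 (0.993 to 1.03). Ribosomal stalk members went the way of the rest: Rplp0 had 2901 CPM in suprabasal-like and 3455 CPM in basal-like cells, Rplp1 had 2617 and 3282 CPM, and Rplp2 had 2491 and 2727 CPM.

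The ratios of the members in the upper layer went with coding length. Over the 80 members, Spearman's rho between the longest annotated coding sequence (GENCODE M21) and the log2 ratio was -0.68 in upper suprabasal-like over basal-like cells. Among the 20 members with the shortest coding sequences, up to 357 bases, the median log2 ratio was -0.22, and among the 20 longest, of at least 633 bases, it was -0.62. Over 1029 other genes of at least 100 CPM and no longer than the longest member (1257 bases), rho was -0.04, and over all 2173 other genes of at least 100 CPM it was -0.21. In the lower suprabasal-like cluster over basal-like cells rho over the members was -0.46, within a narrower range of ratios. In cycling over basal-like cells rho over the members was -0.19, and in p63-KO over wild-type cells it was -0.20. All points of a comparison come from the same libraries, so these are descriptions without a test.

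The same shift is visible as a share of the pool. The 20 longest members gave 23.0% of ribosomal protein UMIs in the upper suprabasal-like cluster and 26.2% in basal-like cells, and the 20 shortest gave 20.2% and 17.9%. Wild-type ciliated-like cells, with 23.1% and 20.6% for the longest and the shortest, were close to the upper suprabasal-like cluster. In the other wild-type clusters the longest members gave between 25.7% and 26.2%.

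**Figure D3:**
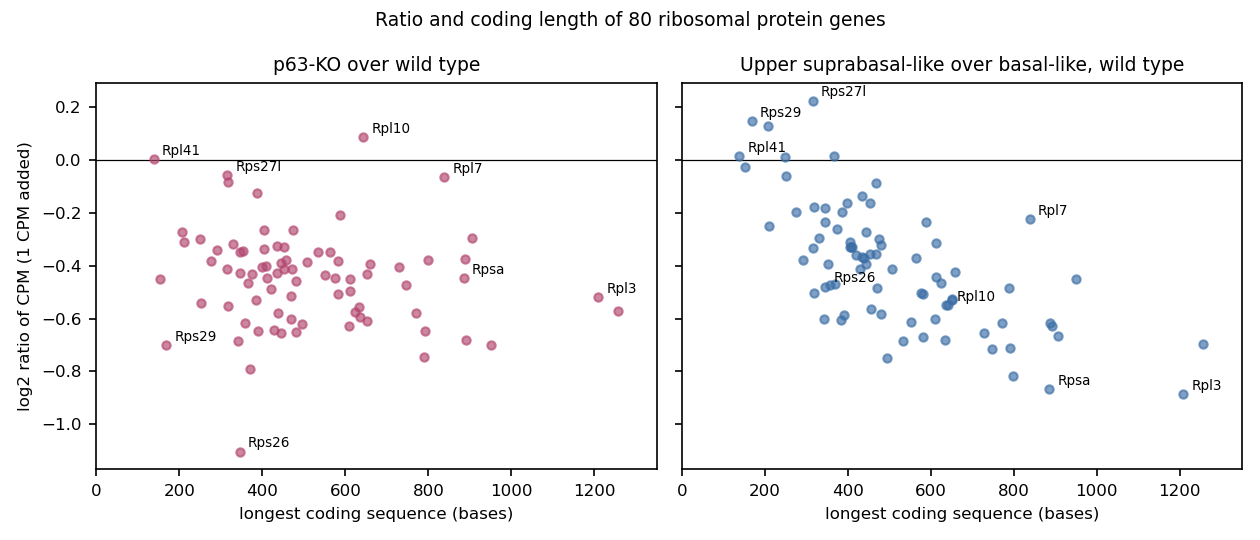
Log2 ratio of CPM against the longest annotated coding sequence, in bases, for 80 members, in p63-KO over wild-type epithelial-like cells (left) and in wild-type upper suprabasal-like over basal-like cells (right). Short members such as Rps29 and Rpl41 sit at or above 0 and long ones such as Rpl3 and Rpsa near -0.9 on the right, and this order is weaker on the left.

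In cycling over basal-like cells the differences were even smaller. The lowest were Rps26 (2313 and 2921 CPM, log2 -0.34), Rpl3 (log2 -0.31), Rpl10 (-0.29), Rpl10a (-0.27) and Rpl11 (-0.27). Rps26 lies at the exit of the messenger channel of the small subunit, and Rpl10 is among the last proteins to join the large subunit. The highest were Rps27l (524 and 501 CPM, log2 0.07), Rpl36al (0.00), Rplp1 (-0.08), Rps23 (-0.09) and Rplp2 (-0.11). Among the most abundant members in basal-like cells were Rps14 (5690 CPM), Rpl23 (5567 CPM), Rpl13 (5398 CPM), Rps12 (5324 CPM) and Rps15a (5114 CPM). Each captured 3′ end counts once whatever the gene's length, but near-identical processed pseudogenes can take or add counts, so levels of different members compare only roughly.

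Genes that make ribosomes differed by more between the layers than ribosomal protein genes did. Of 45 ribosome biogenesis genes (nucleolar proteins, processing factors and RNA polymerase I subunits), 37 were lower in upper suprabasal-like than in basal-like cells by 1.5-fold or more, and 0 were higher. Their median log2 ratio was -1.28, against -0.41 for the members and -0.43 for all genes. Fbl, the methyltransferase of nucleolar box C/D particles, had 55.5 CPM in upper suprabasal-like and 233 CPM in basal-like cells. Npm1, the nucleolar chaperone nucleophosmin, had 438 and 1400 CPM. Of 36 translation factors 13 were lower by that much (median -0.45), among them the elongation factor Eef1a1 (4322 and 9054 CPM). Of 78 mitochondrial ribosomal protein genes 32 were lower and 2 higher (median -0.50), against 42.4% of all genes lower. In the lower suprabasal-like cluster 2 of the 45 biogenesis genes were lower by that much (16.1% of all genes were), with a median of -0.31. Of 17 measured growth signalling genes 6 were lower and 4 higher in the upper cluster. In cycling over basal-like cells 0 of 45 were past 1.5-fold, with a median of 0.02.

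Ribosomal proteins outside the symbol rule moved in different ways in the same cells. Rack1, a scaffold on the small subunit, had 1200 CPM in upper suprabasal-like and 2188 CPM in basal-like cells. Fau, which encodes Rps30 fused to a ubiquitin-like protein, had 2161 and 2127 CPM. Rack1 was thus lower to the degree of Rpsa (log2 -0.87 for both), and Fau was level (0.02).

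In the p63-KO library the ribosomal protein share was lower. Epithelial-like cells had 13.66% (13.65 to 13.67) in the p63-KO library and 18.84% (18.83 to 18.85) in the wild-type library, a log2 ratio of -0.46 and 1.38-fold lower. Of 81 members 79 were below 0 (51.7% of all genes were), 19 were lower by 1.5-fold or more and 0 higher, and their median log2 ratio was -0.44. Among all 11770 genes 17.3% were lower and 22.2% higher by that much, around a median of -0.02. Members of the large and small subunit had medians of -0.43 and -0.45.

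The p63-KO cells also stood apart in depth and quality measures. Median UMIs per epithelial-like cell were 25309 in p63-KO and 11059 in wild type, mitochondrial genes took 5.16% and 3.16%, nuclear RNAs took 1.71% and 1.28%, and dissociation response genes took 0.641% and 0.247%. Of 13 dissociation response genes 11 were higher and 2 lower in p63-KO cells by 1.5-fold or more. Their part in the result was not tested. Counted per cell, p63-KO epithelial-like cells held more ribosomal protein UMIs, a median of 3220 against 2234 in wild type. Genotype and library cannot be told apart.

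The size of the difference depended on which cells were weighed. Without the p63-KO neuroendocrine-like, ionocyte-like and ciliated-like clusters and the p63-KO cluster led by Cnpy1 and Gzma, the log2 ratio was -0.35. The shares were 14.8% in p63-KO and 18.8% in wild type, where all epithelial-like cells were kept, ciliated-like ones included. In that comparison 5 of 81 members were lower and 0 higher by 1.5-fold or more, against 21.3% of genes lower and 18.4% higher. With each cell weighing equally the log2 ratio was -0.72. It was also -0.72 in cells with Y-linked but no Xist UMIs, where 66 members were lower by 1.5-fold or more beside 18.9% of 11901 genes. In cells with Xist but no Y-linked UMIs the log2 ratio was -0.49. Among cells of 10000 to 20000 UMIs the log2 ratio was -1.04, with 9.37% in 510 p63-KO and 19.3% in 2761 wild-type cells. The p63-KO neuroendocrine-like cluster has its median depth of 13846.5 UMIs within that range.

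The p63-KO states ranged over 4.23-fold (log2 2.08), and over a log2 ratio of 0.98 without the neuroendocrine-like cells. Cycling cells had the highest share of summed UMIs, 15.64% (15.63 to 15.66), in 248 cells, and neuroendocrine-like cells the lowest, 3.70% (3.68 to 3.72), in 262 cells. Between them lay the clusters led by Rad51b and Acta2 (15.06%, 170 cells) and by Cryab and Sema3a (14.98%, 279 cells), suprabasal-like cells (14.59%, 218 cells) and an ionocyte-like cluster (13.11%, 75 cells). Mucous secretory-like cells (12.86%, 195 cells), ciliated-like cells (12.21%, 56 cells) and the cluster led by Cnpy1 and Gzma (10.39%, 86 cells) followed. The other ionocyte-like cluster, which also held 11 of 17 cycling markers, had 7.92% in 96 cells. The top rank depended on the measure. By the median cell the cluster led by Cryab and Sema3a was highest, with 14.5% against 14.1% in cycling cells. By the mean over cells cycling cells were highest, with 14.8% against 14.5%. No p63-KO cluster had 3 basal markers at 2-fold, the rule used to name clusters of that library, but neither did a wild-type cluster. By the looser rule that named wild-type basal-like cells, the cluster led by Cryab and Sema3a would qualify, with 7 of 12 basal and 4 of 14 suprabasal markers above the rest of the p63-KO cells. Every p63-KO epithelial cluster was below every wild-type cluster other than the ciliated-like one, and all but the neuroendocrine-like and this ionocyte-like cluster were above that ciliated-like one.

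**Figure D4:**
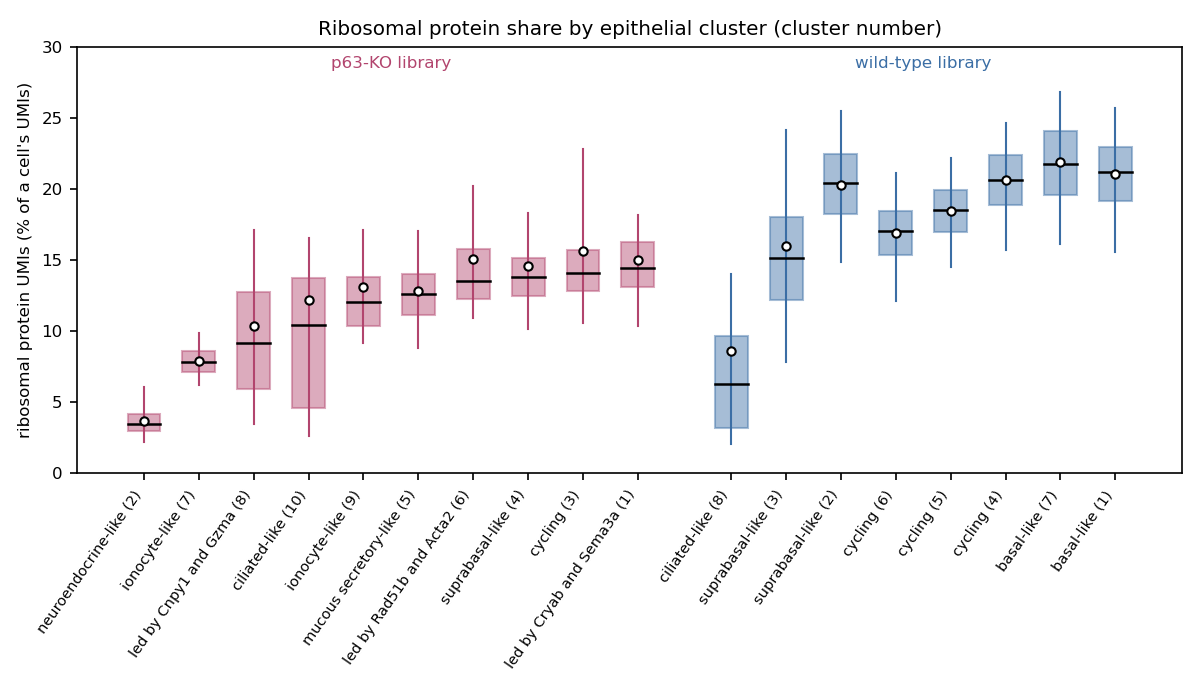
Ribosomal protein UMIs as a percentage of each cell's UMIs, for 10 p63-KO (left) and 8 wild-type (right) epithelial clusters, with cluster numbers in parentheses. Boxes span the middle 50% of cells, black lines are medians, whiskers reach the 5th and 95th percentiles, and white circles are the share of the summed UMIs. The p63-KO neuroendocrine-like cells sit at 3.70%, and the wild-type basal-like clusters at 21.06% and 21.88%.

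States named alike in both libraries differed in size and direction. Ciliated-like cells had 12.21% in p63-KO (56 cells) and 8.63% in wild type (27 cells), so the share was higher in p63-KO there. By the median cell it was 10.5% and 6.27%, at median depths of 36740 and 22903 UMIs. Within the p63-KO ciliated-like cluster the share rose with depth (Spearman's rho 0.66 over cells). The part of depth in this difference was not tested. Cycling cells had 15.64% in p63-KO and 18.65% in wild type (log2 -0.25), with 4 of 81 members lower and 0 higher by 1.5-fold or more, where 26.8% of genes were lower and 20.7% higher. Relative to the other epithelial-like cells of its own library, cycling cells had 81 of 81 members above 0 in p63-KO, where 42.8% of genes were, and 34 of 81 in wild type, where 62.6% were. None of these (0) reached 1.5-fold, where 4.09% of genes were higher and 10.8% lower in p63-KO, and 17.5% higher and 13.3% lower in wild type. Suprabasal-like cells had 14.59% in p63-KO, against 15.97% in the upper and 20.28% in the lower wild-type cluster. Against the upper cluster the log2 ratio was -0.13, and 1 of 81 members was lower and 0 higher by 1.5-fold or more, where 13.6% of genes were lower and 27% higher. The p63-KO suprabasal-like cluster is led by Psca, 2300002M23Rik and Calml3, and Psca and 2300002M23Rik also lead the upper wild-type cluster. Its 20 longest members gave 25.4% of ribosomal protein UMIs, and 24.9% in all p63-KO epithelial-like cells. In wild type they gave 25.7% in the lower and 23.0% in the upper cluster, and 26.2% in basal-like cells. Ribosome biogenesis genes stood in the opposite direction against the upper cluster, with 17 of 45 higher and 0 lower in p63-KO by 1.5-fold or more.

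Depth moved with the share within some p63-KO clusters. When cells were split into 3 equal groups by UMIs, cycling cells had 13.5%, 14.0% and 17.1% at medians of 30319, 68493 and 118530 UMIs. The cluster led by Rad51b and Acta2 had 12.5%, 14.4% and 16.4%. The cluster led by Cryab and Sema3a was level, with 14.8%, 14.8% and 15.1% at medians of 14998, 20134 and 43889 UMIs. The wild-type basal-like clusters at medians of 6543.5 to 11968 UMIs had between 20.2% and 22.6%. The part of depth in the p63-KO cycling value was not tested.

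Neuroendocrine-like cells, which secrete peptide hormones and carry Chgb, Scg2 and Pcsk2, had low counts of every member. Their share was 3.70%, against 14.19% in the other p63-KO epithelial-like cells, a log2 ratio of -1.94 and 3.84-fold lower. All 81 members were lower by 1.5-fold or more, where 25.6% of 12646 genes were lower and 34.1% higher, around a median of 0.15. A median cell held 479.5 ribosomal protein UMIs in this cluster and 4146 in the other states, and 13281 and 29108 UMIs of other genes. Rpl12 was lowest, with a log2 ratio of -2.69, followed by Rpl22 (-2.68) and Rps28 (-2.53), and Rpl36al (-1.33), Rpl22l1 (-1.39) and Rps3a1 (-1.41) were highest among the 80 members of at least 100 CPM in wild-type basal-like cells. Rpl7l1, under that level, was at -0.91. Nuclear RNAs took 5.78% of UMIs in neuroendocrine-like cells and 1.49% in the others, mitochondrial genes 2.64% and 5.30%. Meg3, an imprinted nuclear RNA, had 6959 and 366 CPM. Whether nuclear RNA counts bear on the low share was not tested. Over depth the share in this cluster was 3.88%, 3.84% and 3.50% in its 3 depth groups. Of 36 translation factors 27 were lower and 0 higher by 1.5-fold or more, and of 45 ribosome biogenesis genes 27 were lower and 1 higher.

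Rps26 set itself apart from the other members between the libraries. It had 1162 CPM in p63-KO and 2498 CPM in wild-type epithelial-like cells, a log2 ratio of -1.10 and 2.15-fold lower (2.13 to 2.17), and no other member was past 2-fold. The gene lies at chr10:128624534-128626747 (mm10). Its p63-KO levels ran from 414 CPM in neuroendocrine-like cells to 1525 CPM in the cluster led by Cryab and Sema3a, and its wild-type levels from 926 CPM in ciliated-like cells to 3210 CPM in the basal-like cluster led by Zbtb16. Outside the ciliated-like cells all wild-type clusters, the lowest at 1918 CPM, were above all p63-KO clusters. Relative to the summed members the log2 ratio was -0.64, so that Rps26 alone was past 1.5-fold on that scale. Within the p63-KO states it was the lowest member of the pool, relative to wild-type basal-like cells, in 7 of 10 clusters.

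Next below the other members in p63-KO cells were Rpl35, Rps4x, Rps29 and Rplp0. Rpl35, at the exit of the peptide tunnel, had 294 CPM in p63-KO and 510 CPM in wild type (log2 -0.79). Rps4x, encoded on chromosome X, had 2269 and 3806 CPM (log2 -0.75). Rps29 had 813 and 1321 CPM (log2 -0.70), and Rplp0, the stalk protein that carries Rplp1 and Rplp2, had 1916 and 3110 CPM (log2 -0.70). Rplp1 had 1818 and 2925 CPM (log2 -0.69) and Rplp2 1901 and 2558 CPM (log2 -0.43). Rpl5 had 1673 and 2682 CPM (log2 -0.68), whereas its partner Rpl11 had 1639 and 2088 CPM (log2 -0.35). Rpsa had a log2 ratio of -0.45 and Rps6 of -0.47, at the centre of the members.

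Some members were level between the libraries. Rpl10, also on chromosome X, had 1193 CPM in p63-KO and 1122 CPM in wild type (log2 0.09, 1.06-fold with an interval of 1.05 to 1.07). Rpl41, the shortest member, had 2679 and 2673 CPM, Rps27l had 520 and 541 CPM, Rpl7 had 2451 and 2559 CPM, and Rpl36al had 470 and 497 CPM. The X-linked members did not behave alike: Rpl36a had a log2 ratio of -0.55 and Rpl39 of -0.45 beside the 0.09 of Rpl10 and -0.75 of Rps4x. Relative to the summed members, Rpl10 had a log2 ratio of 0.55 and Rpl41 of 0.47. In cells with Xist UMIs Rpl10 had 1169 CPM in p63-KO and 1113 CPM in wild type, and in cells with Y-linked UMIs 1049 and 1165 CPM.

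Second copies differed from their partners in how they followed the pool. Rps27l, which in human cells is a target of p53, made up 38.2% of the UMIs of the pair with Rps27 in p63-KO and 30.7% in wild-type epithelial-like cells. Its level was similar nearly everywhere, between 452 and 675 CPM in the p63-KO clusters other than the neuroendocrine-like one (199 CPM), and between 427 and 699 CPM in the wild-type clusters. Rps27 had 839 CPM in p63-KO and 1221 CPM in wild type. Rps27rt, a listed gene whose symbol marks it as a copy of Rps27, had 34.6 and 31.3 CPM. The Rps27l part of the pair was largest in the p63-KO ionocyte-like cluster with cycling markers, 58.9% (57.0 to 60.9), and smallest in the wild-type basal-like cluster led by Zbtb16, 23.7% (22.8 to 24.7). Within the wild type it was 36.3% in the cycling cluster led by Cenpa and 29.7% in the S-phase cluster. Relative to the pool of wild-type basal-like cells, Rps27l was the highest member in 7 of 10 p63-KO clusters and in 6 of 8 wild-type ones. Both wild-type basal-like clusters are part of that reference. The large one is among the 6, at a log2 ratio of only 0.07, so its place there says little.

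The pair of Rpl22 and Rpl22l1 shifted in the upper layer. In mice the Rpl22 protein is known to hold down Rpl22l1. Rpl22 had 1218 CPM in upper suprabasal-like and 1853 CPM in basal-like cells, and Rpl22l1 had 895 and 886 CPM, so that Rpl22l1 gave 42.4% (41.9 to 42.9) of the pair in the upper cluster and 32.4% (32.0 to 32.8) in basal-like cells. In p63-KO neuroendocrine-like cells it gave 58.1% (55.6 to 60.6). Over all epithelial-like cells the share was 36.3% in p63-KO and 35.3% in wild type. Rpl36al gave 40.9% of its pair with Rpl36a in p63-KO and 33.3% in wild type. Rpl7l1 gave 1.82% and 2.99% of its pair with Rpl7, and its level in wild type was highest in the cycling cluster led by Cenpa (124 CPM). The testis and muscle copies were at the limit of detection: Rpl10l had 0 UMIs in either library, which allows up to 3, Rpl39l had 2 UMIs in p63-KO and 10 in wild type, and Rpl3l had 8 and 19.

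**Figure D5:**
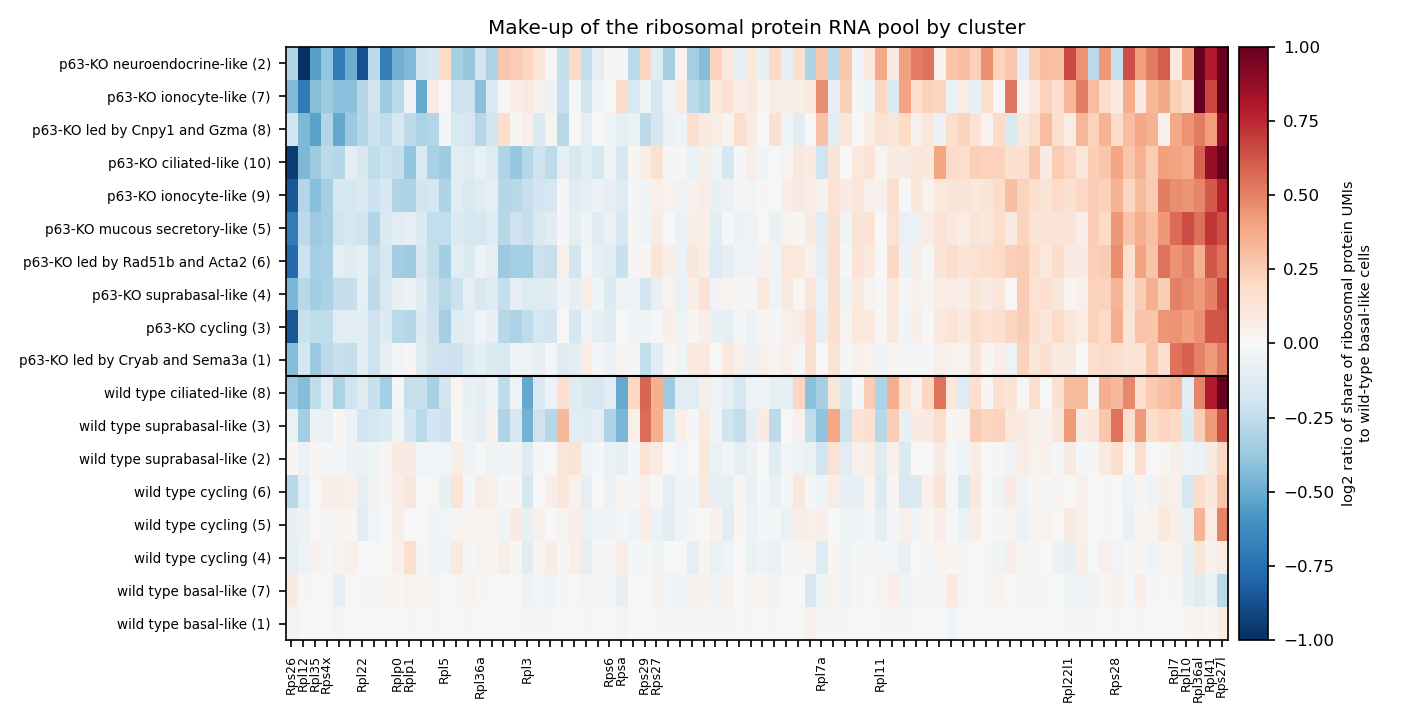
Each member's part of all ribosomal protein UMIs in a cluster, as a log2 ratio to wild-type basal-like cells, for 80 members (columns, ordered by their mean over the p63-KO clusters) in 10 p63-KO clusters (rows above the line) and 8 wild-type clusters (rows below it). The colour scale ends at -1 and 1. A selection of the columns is named. Rps26 at the left is low and Rps27l at the right is high in most p63-KO rows, while most wild-type rows are nearly blank apart from the upper suprabasal-like and ciliated-like clusters.

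The make-up of the pool was measured against wild-type basal-like cells. The SD over 80 members of the log2 ratio of pool parts to wild-type basal-like cells was 0.05 to 0.09 in the 3 wild-type cycling clusters, 0.08 in the lower and 0.24 in the upper suprabasal-like cluster, and 0.33 in ciliated-like cells. The upper suprabasal-like value lies within the p63-KO range. Among p63-KO clusters it was lowest in the cluster led by Cryab and Sema3a (0.19) and highest in neuroendocrine-like cells (0.40), with 0.23 in cycling cells. Counting error adds to these values most in the small clusters. Ribosome biogenesis genes were lower in p63-KO than in wild-type epithelial-like cells in 42 of 45 cases, where 51.7% of all genes were. By 1.5-fold or more 13 of the 45 were lower, where 17.3% of all genes were. The median log2 ratio of the 45 was -0.42. Fbl had 90.1 and 177 CPM there, and Ncl, the nucleolar protein nucleolin, had 368 and 664 CPM. Of 36 translation factors 5 were lower by that much (median -0.32), and of 78 mitochondrial ribosomal protein genes 8 (median -0.20), both below the 17.3% of all genes. Rack1 had 1312 CPM in p63-KO and 1811 CPM in wild type, and Fau had 1716 and 2051 CPM.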

How the data were processed

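The authors deposited raw counts, whole-number UMI counts per gene and barcode. Cell Ranger 7.1.0 and mm10 are named per the submitters' processing notes. The annotation release, and the treatment of intronic reads, are unstated (not given in the sources used here); intronic reads would move the totals of cells rich in nuclear RNA. Filters were a minimum of 500 genes and 1000 UMIs and a maximum of 10% mitochondrial UMIs per barcode (2422 of 2821 p63-KO and 5787 of 6034 wild-type barcodes passed), and 47 and 268 called doublets were removed. The caller scores simulated neighbours and missed most doublets planted as a test. Cells were clustered on 2000 variable genes without ribosomal protein genes, 30 principal components and 20 neighbours (leidenalg 0.10.2, scikit-learn 1.9.0, scipy 1.17.1, Python 3.11.15), jointly at resolution 1 and then epithelial-like cells per library at 0.6.

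p63-KO clusters were named from at least 3 markers found in at least 25% of cells and at least 2-fold over the rest. Wild-type basal-like and suprabasal-like clusters were named when more than 50% of that list and under 50% of the other were above the remaining epithelial cells. These naming thresholds were set after the data were seen. A cluster named by its leading genes met no list. Counts were summed per class. Log2 ratios use CPM with 1 CPM added, and members needed 5 CPM in 1 class. The ratio code was tested on simulated counts. No test was run. The members and lists were chosen with earlier results of these data known. Named are, in each of 3 comparisons, the 5 highest and 5 lowest members of at least 100 CPM, the 6 most abundant in basal-like cells (1 of them is not reported here), second copies, X-linked members, and members with the roles given. Other members and clusters were named after their values were seen. Alternatives changed cell weighting, the total, the filters, doublets, resolution, the cells compared and the fold threshold.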

Additional observations from a re-analysis of the deposited data

Results flagged for a closer look

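The ribosomal protein share of cycling cells stood on opposite sides of the remaining epithelial-like cells in the 2 libraries. In the p63-KO library cycling cells had 15.6% and all others 13.0%, a log2 ratio of 0.27, with 81 of 81 members higher beside 42.8% of all genes. In the wild-type library cycling cells had 18.7% and all others 18.9%, a log2 ratio of -0.020, with 34 of 81 members higher beside 62.6% of all genes. The difference between the libraries was not tested, since each holds 1 sample. The p63-KO cycling cells had a median of 68463 UMIs and the other p63-KO epithelial-like cells 22217. In wild type these medians were 12067 and 10785. The others in p63-KO include the 262 neuroendocrine-like cells, and also 96 ionocyte-like cells that held 11 of 17 cycling markers at 2-fold and had a share of 7.92%.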

How the results depend on the processing

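No paired analysis was possible because each genotype has 1 library. Main log2 ratios of the share were -0.27 (suprabasal-like over basal-like), -0.19 (cycling over basal-like), -0.46 (p63-KO over wild type) and 2.08 (highest over lowest p63-KO state), and every alternative kept these directions. In that order they were -0.23, -0.18, -0.72 and 1.997 with each cell weighing equally, -0.15, -0.20, -0.46 and 2.15 without the 50 most abundant other genes, -0.30, -0.19, -0.61 and 2.03 at most 5% mitochondrial UMIs, -0.28, -0.19, -0.49 and 2.04 in cells with Xist UMIs, and -0.29, -0.18, -0.72 and 2.04 in cells with Y-linked UMIs. Without mitochondrial genes the last 2 were -0.43 and 2.12. With doublets kept, suprabasal-like over basal-like was -0.26, p63-KO over wild type -0.46 and the state range 2.05. Resolution 1 gave -0.34, -0.16 and 2.19 and cannot move the comparison of libraries. There 532 wild-type cells led by Ung, Timeless and Mcm3 counted as cycling. Another 537 wild-type cells, led by Mctp1 and Kcne3, met no list and were in neither the basal-like nor the suprabasal-like class. Their leading genes included Krtdap and Notch3, which also lead the lower suprabasal-like cluster. The outer marker-ranked groups gave -0.34. Without cycling clusters p63-KO over wild type was -0.54. Alternatives chosen after seeing the data gave -0.41 for the upper suprabasal-like cluster and -1.04 at 10000 to 20000 UMIs. They gave -0.35 without the other lineages of the p63-KO library and 0.98 for the state range without neuroendocrine-like cells. Members past 1.5-fold in suprabasal-like over basal-like cells numbered 0, against 30 at a ratio of 5 to 4 either way (69.4% of all genes). At 1.5-fold there was 1 in Xist cells (45.9% of all genes) and 1 in Y-linked cells (50.8%). The upper cluster had 20 lower (42.4% of all genes were). For cycling over basal-like cells 1 passed the ratio of 5 to 4, where 25.1% of all genes did. For p63-KO over wild type 19 passed (17.3% of all genes were lower), against 67 at 5 to 4 and 1 at 2-fold (30.7% and 7.90% were lower by these). Scaled to the summed members 1 passed, a setting without a count over all genes. In Y-linked cells 66 passed (18.9% of all genes were lower there), and without the other p63-KO lineages 5 did (21.3%). The causes were not tested. Counting error is small beside these shifts, and the lack of replicate libraries is the limit.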

Other observations

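A wild-type cluster of 148 cells that stayed unnamed had the highest ribosomal protein share of all, 34.4% (34.3 to 34.6). Its median depth was 2855.5 UMIs, and mitochondrial genes took 0.349% and nuclear RNAs 0.051% of its UMIs, against 3.16% and 1.28% in wild-type epithelial-like cells. In the p63-KO library 16 cells of the same cluster had between 18.1% and 18.9% (the bounds of the interval). Its leading genes included Ube2c, Birc5 and Aurkb.

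Among the other cell types of the p63-KO library the ribosomal protein share was 10.1% in 512 fibroblast-like cells, 11.3% in 70 endothelial-like cells, 10.5% in 18 immune-like cells and 8.25% in 74 smooth muscle- or pericyte-like cells. All lay above the 3.70% of neuroendocrine-like cells. In fibroblast-like cells Rps27l gave 26.9% of the pair with Rps27, against 38.2% in p63-KO epithelial-like cells, at 257 and 520 CPM.

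In p63-KO epithelial-like cells the share was 13.4% in 913 cells with Xist but no Y-linked UMIs. It was 11.6% in 395 cells with Y-linked but no Xist UMIs. In wild type it was 18.7% in 3339 and 19.2% in 1457 cells. Within the p63-KO cluster led by Cryab and Sema3a it was 14.9% in Xist and 14.6% in Y-linked cells.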
